A study of Mus musculus with 8 samples.

Results

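The 9 genes described here build, degrade or regulate muscle glycogen. They are Ugp2, Gyg, Gys1 and Gbe1 on the synthesis side, Pygm, Phka1 and Phkg1 on the breakdown side, and Ppp1r3a and Ppp1r3c, which bring a phosphatase to the glycogen particle. They were named as a pathway and not by their values, although earlier results of these data were known. Each was measured by the only probe set on the array that the platform annotation gives to its symbol alone. They are 9 of the 19938 genes tested. Gastrocnemius, a calf muscle of mainly fast fibres, was taken from untreated mice at 30 weeks of age on a low-fat chow diet. The knockout samples (n = 4) came from mice of a published Hdac5 knockout line, and the wild type samples (n = 4) from littermate controls. The sources used here name neither the deleted part of Hdac5 nor the strain or sex of the animals. The submitters' title ties Hdac5, a class IIa histone deacetylase, to interleukin 6 secretion and to insulin action in muscle. The labels number the samples without saying that each is a separate animal, so a p-value measures only their spread, which may be technical.

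Muscle stores glucose as glycogen. Glucose 1-phosphate is activated to UDP-glucose, glycogenin primes the chain, glycogen synthase lengthens it and the branching enzyme adds branches, while glycogen phosphorylase releases glucose 1-phosphate when the fibre contracts. Phosphorylase kinase, driven by calcium and adrenaline, switches phosphorylase on, and protein phosphatase 1, held on glycogen by targeting subunits, switches phosphorylase off and the synthase on. Insulin favours synthesis, mainly through the phosphorylation state of these proteins, which arrays of RNA do not measure.

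Class IIa deacetylases reach DNA in muscle mostly through MEF2 factors. The promoter windows of the 9 genes were therefore searched on both strands for the MEF2 consensus and for the E-box CANNTG. Myogenic factors bind E-boxes, but so do other proteins, and a match to CANNTG does not tell them apart. Each window holds 250 bases before and 50 after a RefSeq transcript start in GRCm38.p6, and all 9 genes had at least 1 window (10 windows, since Ugp2 has a pair). The MEF2 consensus occurred in 1 of the 10 windows, that of Ppp1r3a, and in 3.19% of 32851 windows over all genes. An E-box occurred in all 10 windows and in 72.3% of all windows. The windows of both targeting subunits are printed 5′ to 3′ on the gene's strand, because Ppp1r3a holds the MEF2 match and Ppp1r3c is the gene with the smallest p between the genotypes. The first lies at chr6:14755225-14755524 on the minus strand, with the MEF2 match, from 100 to 91 bases before the start, in capitals.
Ppp1r3a: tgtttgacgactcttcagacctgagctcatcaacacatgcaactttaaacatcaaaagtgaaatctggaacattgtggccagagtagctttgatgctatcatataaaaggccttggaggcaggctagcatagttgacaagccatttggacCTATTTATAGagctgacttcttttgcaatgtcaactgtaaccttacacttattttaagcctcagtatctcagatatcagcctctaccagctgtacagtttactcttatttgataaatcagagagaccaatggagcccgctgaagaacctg

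The Ppp1r3c window lies at chr19:36736555-36736854 on the minus strand and is 65.3% G and C, against 41.0% in that of Ppp1r3a. Its 2 E-boxes are in capitals. A match to these letters is a description of the sequence, and the arrays do not measure binding.
Ppp1r3c: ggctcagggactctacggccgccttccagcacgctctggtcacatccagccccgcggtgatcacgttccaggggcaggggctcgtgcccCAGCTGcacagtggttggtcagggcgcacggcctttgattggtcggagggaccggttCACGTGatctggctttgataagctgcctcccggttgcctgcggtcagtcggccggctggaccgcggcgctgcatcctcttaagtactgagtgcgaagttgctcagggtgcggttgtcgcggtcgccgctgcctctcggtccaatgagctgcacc

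No glycogen gene passed between the genotypes. In limma, 0 of the 9 had an adjusted p under 0.05 over all genes, where 0.0652% of all genes passed. At an unadjusted p under 0.05 there was 1 of 9, Ppp1r3c, against 7.90% of all genes. Knockout and wild type samples overlapped in all 9 genes, whereas they did not overlap in 4.90% of all genes. Of the 1078 genes at least as bright as the dimmest of the 9, 12.9% did not overlap and 12.1% had an unadjusted p under 0.05, beside 11.1% (1 of 9) here. The median change of the 9 was 0.013 (knockout minus wild type, on the log2 scale, as are all changes below), beside 0.0030 over all genes, with 5 means higher and 4 lower. The median size of a change, regardless of sign, was 0.039 in the 9 and 0.057 over all genes. Hdac5 itself fell by 1.50 in the knockout samples (SE 0.059, limma adjusted p = 1.74e-07).

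**Figure D1:**
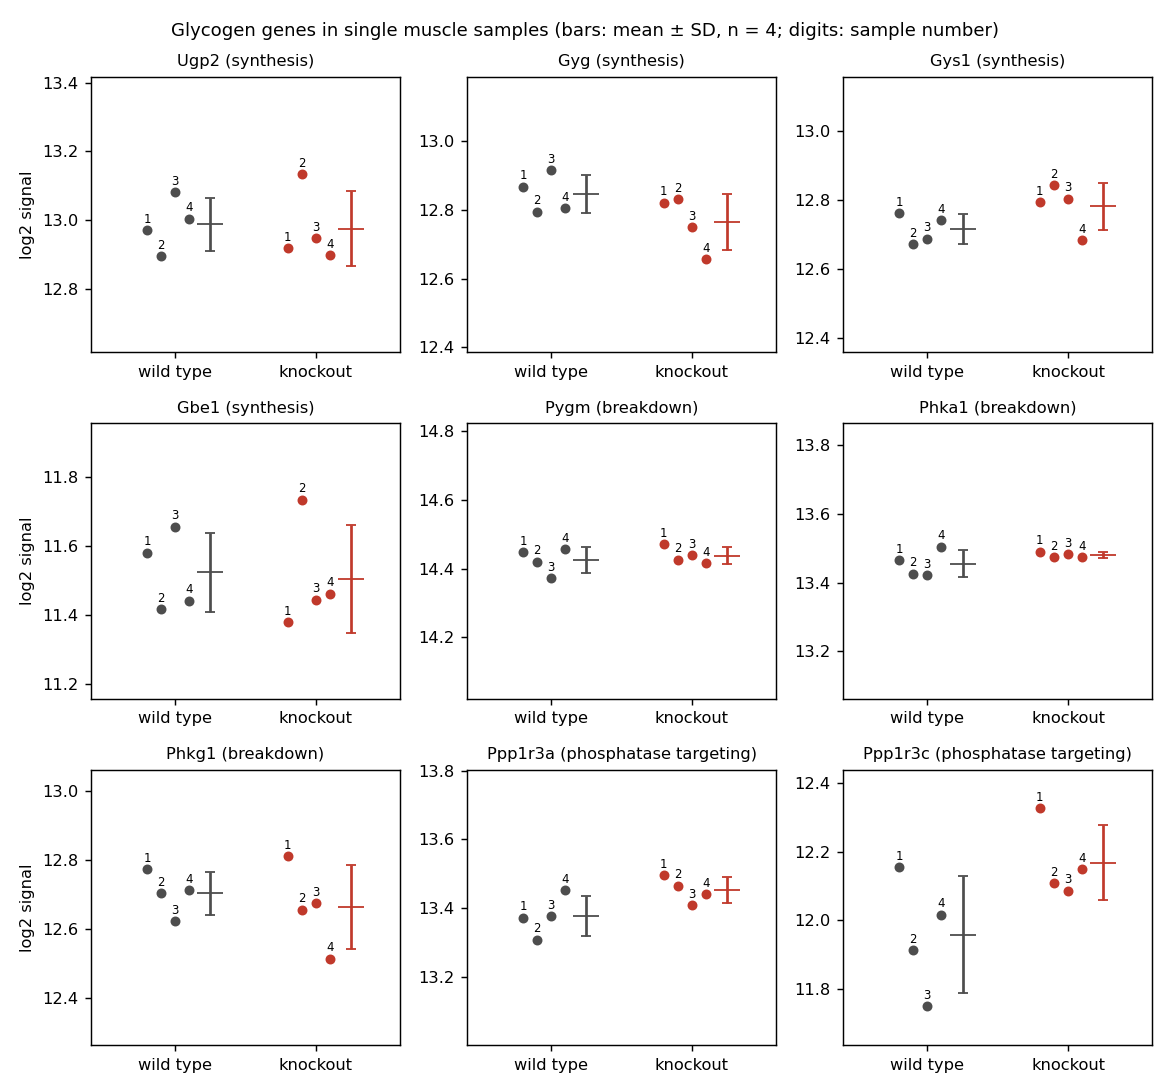
Deposited log2 signal of the 9 genes in each sample; every panel spans the same height on the log2 axis, points are single samples with their label number, and bars are the mean and SD of 4 samples. The genotypes overlap in every panel, and Ppp1r3c has the widest range, from 11.75 in wild type sample 3 to 12.33 in knockout sample 1.

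The synthesis enzymes had a median change of -0.016. Gys1, muscle glycogen synthase, lengthens the chain and is the regulated step of synthesis. Its log2 signals were 12.80, 12.84, 12.80 and 12.68 in knockout samples 1 to 4 and 12.76, 12.67, 12.69 and 12.74 in wild type samples 1 to 4. Knockout samples 1 to 3 lay above every wild type sample and knockout sample 4 lay among the low wild type samples. The means were 12.78 ± 0.068 and 12.72 ± 0.043 (SD, n = 4 each), a difference of 0.066 (SE 0.057, limma adjusted p = 0.839, exact permutation p = 0.171). The 95% interval of the change in signal ran from -4.01% to 14.1%.

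Gyg encodes glycogenin, the protein that primes a new particle by adding glucose to itself. It read 12.82, 12.83, 12.75 and 12.66 in knockout samples 1 to 4, and 12.87, 12.79, 12.91 and 12.81 in wild type samples 1 to 4. Knockout samples 3 and 4 lay below every wild type sample and the other knockout samples among them. The means were 12.76 ± 0.081 and 12.85 ± 0.056 (SD, n = 4 each), a difference of -0.082 (SE 0.061, limma adjusted p = 0.803, exact permutation p = 0.171). Its interval reached from -13.8% to 3.57%, and it was the largest negative difference among the 9.

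Ugp2, UDP-glucose pyrophosphorylase, makes the activated sugar that glycogenin and the synthase consume. Its values were 12.92, 13.14, 12.95 and 12.90 in knockout samples 1 to 4 and 12.97, 12.90, 13.08 and 13.01 in wild type samples 1 to 4. Knockout sample 2 was the highest, and the other knockout samples lay in the lower part of the wild type range. The difference was -0.014 (SE 0.069, limma adjusted p = 0.976), with a sign that turned under quantile normalization (0.0033) and with each array centred on its median (0.0016), so no direction can be given.

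Gbe1, the branching enzyme, sets how soluble and accessible the particle is. It measured 11.38, 11.74, 11.45 and 11.46 in knockout samples 1 to 4 and 11.58, 11.42, 11.66 and 11.44 in wild type samples 1 to 4. Knockout sample 2 was again highest and knockout sample 1 lowest, so the wild type range sat inside the knockout range. The difference was -0.019 (SE 0.085, limma adjusted p = 0.973), with an interval from -13.2% to 12.3%. Its sign turned to 0.0073 with array weights.

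The breakdown genes had a median change of 0.013. Pygm, muscle glycogen phosphorylase, cleaves glucose 1-phosphate from the chain ends, and its loss in people causes McArdle disease. Its signals were 14.47, 14.43, 14.44 and 14.42 in knockout samples 1 to 4 and 14.45, 14.42, 14.37 and 14.46 in wild type samples 1 to 4. The 8 samples lay close together, and wild type sample 3 was the lowest. The difference was 0.013 (SE 0.052, limma adjusted p = 0.971), and its interval ran from -6.71% to 9.19%. Without wild type sample 3 it was -0.0039. The brightest value on each array lay at 14.80 to 14.84, and whether the signal of Pygm is compressed so near that ceiling was not tested.

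Phka1 encodes the muscle alpha subunit of phosphorylase kinase, one of its regulatory subunits. Its knockout values were 13.49, 13.47, 13.48 and 13.47, with an SD of 0.0075, and the wild type values 13.47, 13.43, 13.42 and 13.50, with an SD of 0.039. The knockout samples fell inside the wild type range. The difference was 0.026 (SE 0.0515, limma adjusted p = 0.937).

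Phkg1 encodes the muscle catalytic subunit of the same kinase. It read 12.81, 12.66, 12.68 and 12.51 in knockout samples 1 to 4 and 12.77, 12.70, 12.62 and 12.71 in wild type samples 1 to 4. Knockout samples 1 and 4 were the highest and lowest of all 8, around a narrower wild type range. The difference was -0.039 (SE 0.0695, limma adjusted p = 0.930), and it was 0.011 without knockout sample 4.

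The targeting subunits had the largest positive differences of the 9, 0.075 for Ppp1r3a and 0.21 for Ppp1r3c. Ppp1r3a, known as GM, is the striated muscle subunit that anchors protein phosphatase 1 to glycogen and the sarcoplasmic reticulum. Its values were 13.50, 13.47, 13.41 and 13.44 in knockout samples 1 to 4 and 13.37, 13.31, 13.38 and 13.45 in wild type samples 1 to 4. Knockout samples 1 and 2 lay above every wild type sample, and wild type sample 4 lay above knockout samples 3 and 4. The means were 13.45 ± 0.037 and 13.38 ± 0.059 (SD, n = 4 each), a difference of 0.075 (SE 0.055, limma adjusted p = 0.800, exact permutation p = 0.0857).

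Ppp1r3c encodes PTG, a targeting subunit that gathers the phosphatase, glycogen synthase and phosphorylase on 1 scaffold and favours synthesis. It read 12.33, 12.11, 12.09 and 12.15 in knockout samples 1 to 4 and 12.15, 11.91, 11.75 and 12.02 in wild type samples 1 to 4. All 4 knockout samples lay above the wild type mean, but wild type sample 1 lay level with knockout sample 4 and above knockout samples 2 and 3. The means were 12.17 ± 0.11 and 11.96 ± 0.17 (SD, n = 4 each), a difference of 0.21 (SE 0.0875), or 1.16-fold with a 95% interval of 1.01 to 1.32. It did not pass over all genes (limma adjusted p = 0.580, unadjusted p = 0.0345), and the exact permutation p was 0.114, where 4 against 4 samples allow no less than 0.0286. Leaving out 1 sample took the unadjusted limma p to 0.106 (knockout sample 1 omitted), 0.0752 (wild type sample 2) or 0.118 (wild type sample 3). With any other single sample left out it stayed under 0.05, from 0.00784 (wild type sample 1) to 0.0499 (knockout sample 4).

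**Figure D2:**
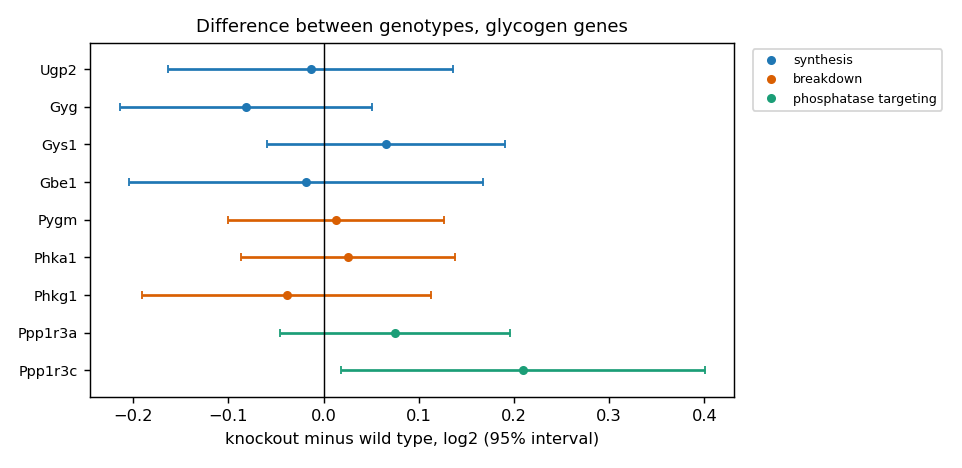
Difference between knockout and wild type (log2, horizontal axis) for each gene, with its 95% interval from limma; colours mark synthesis, breakdown and phosphatase targeting. The intervals of 8 genes span 0, and that of Ppp1r3c runs from 0.018 to 0.40 before any adjustment for the number of genes tested.

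The limma intervals were computed gene by gene, without adjustment for the number of genes. They measure only the spread of these samples, which may be technical, so they need not limit an effect of genotype. Over the 9 genes the lowest bound was -13.8%, for Gyg, and the highest was 32.0%, for Ppp1r3c. These intervals take the deposited log2 scale at face value. For Pygm, near the brightest value on each array, compression of the signal was not tested. Its interval therefore need not limit the change in transcript. RNA was taken from whole muscle, so a change in the share of fibres and a change in transcript per fibre cannot be told apart.

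The 9 genes did not vary as 1 block across samples. Knockout sample 1 held the highest value of 4 genes, Pygm, Phkg1, Ppp1r3a and Ppp1r3c, but the lowest of Gbe1. Knockout sample 2 held the highest of Ugp2, Gys1 and Gbe1. Among wild type samples, sample 2 was lowest of all 8 for Ugp2, Gys1 and Ppp1r3a, and sample 3 for Pygm, Phka1 and Ppp1r3c. Ugp2 and Gbe1 were each highest in knockout sample 2 and next highest in wild type sample 3. Over the 8 samples Pearson's r was 0.885 (exact permutation p = 0.00675, adjusted p = 0.193 over the 36 pairs of genes) and Spearman's rho was 0.714 (exact permutation p = 0.0576, adjusted p = 0.500). Knockout sample 2 and wild type sample 3 are also the 2 samples farthest from the median of Ugp2, and without them r was 0.396 (n = 6, exact permutation p = 0.461), so the relation over 8 samples rests on them. Of the 36 pairs, 5 had an unadjusted exact p under 0.05 for r and 0 passed after adjustment.

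**Figure D3:**
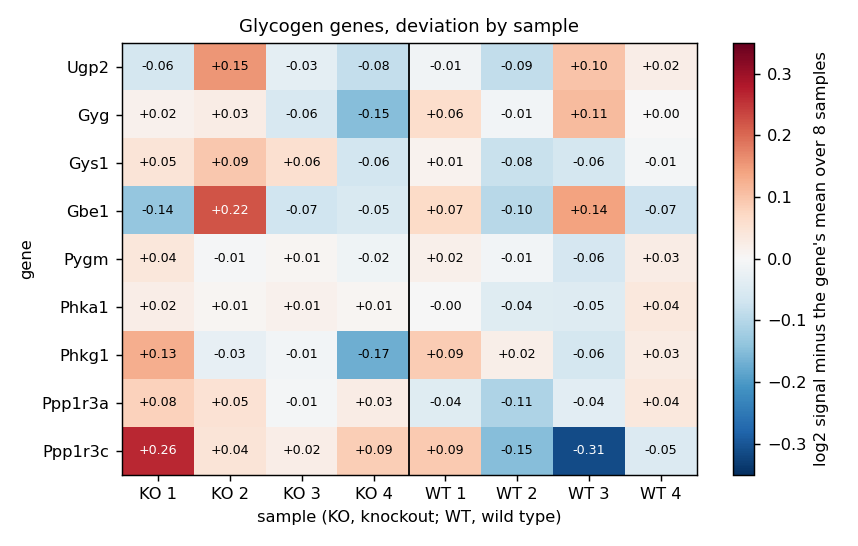
Each cell gives the log2 signal minus the mean of that gene over the 8 samples; columns are samples, with knockout (KO) left of the line and wild type (WT) right of it. Ugp2 and Gbe1 share their high samples (KO 2 and WT 3), and Ppp1r3c spans the widest range.

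Ppp1r3c had both the smallest p and the widest range (0.58), so the genes whose signal followed it most closely were looked up among 9968 other genes brighter than the median gene. They were Pomk, a kinase that modifies dystroglycan's sugar chain, with r = 0.987, the DNA exonuclease Trex1 with r = 0.977 and the kinase Pim2 with r = 0.960 over the 8 samples. These are the highest of many correlations on the same arrays and describe likeness alone. Pomk read 9.07, 8.90, 8.87 and 8.92 in knockout samples 1 to 4 and 8.89, 8.71, 8.64 and 8.83 in wild type samples 1 to 4, with the same highest and lowest samples as Ppp1r3c. Its difference was 0.17 (SE 0.072, limma adjusted p = 0.566).

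The wider pathway was read from 39 further genes with a probe set of their own. The probe set for Prkaca, a protein kinase A catalytic subunit, is shared with another gene and was not used here. In limma 0 of 39 passed over all genes, and 4 (10.3%) had an unadjusted p under 0.05, beside the 7.90% of all genes given above. Of these, 2 had higher and 2 lower signals in knockout muscle, where 4.72% and 3.18% of all genes did. The samples of the genotypes did not overlap in 5 of the 39 (12.8%), namely Gys2, Pgm2l1, Ppp1cc, Gaa and Slc2a1, beside 4.90% of all genes. The share was 12.9% in the bright genes above, but these are not a like set. The mean signals of the 39 ranked from the 13.7th to the 99.5th percentile. The median change was 0.014. These genes are described by role, and their p-values did not pass after adjustment.

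Among isoforms, Gys2, the liver type of glycogen synthase, had the smallest p of the 39. It read 6.37, 6.40, 6.52 and 6.22 in knockout samples 1 to 4 and 5.97, 6.14, 5.89 and 5.97 in wild type samples 1 to 4, so every knockout sample lay above every wild type sample. The difference was 0.38 (SE 0.075), with a limma adjusted p of 0.115 and an exact permutation p of 0.0286. Its mean signal ranked at the 13.7th percentile of genes, a rank of probe sets near the dim end and not of transcript amounts. Whether its signal exceeded background was not tested, so no fold is given. Other liver markers ranked at the 17.5th to 44.1st percentile, and none had an unadjusted p under 0.05 in limma. Alb differed by 0.018 (SE 0.093), Ttr by -0.033 (SE 0.056) and Apoa1 by -0.15 (SE 0.11). The brain and liver phosphorylases Pygb and Pygl differed by 0.12 (SE 0.078) and 0.058 (SE 0.075), and the phosphorylase kinase subunits Phkb, Phka2 and Phkg2 by 0.064, -0.045 and 0.070.

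Of the phosphoglucomutase family, Pgm1, which links glucose 1-phosphate and glucose 6-phosphate, differed by 0.013 (SE 0.060). Pgm2l1, which makes glucose 1,6-bisphosphate, the cofactor of that reaction, read 10.28, 10.18, 10.14 and 10.16 in knockout samples 1 to 4 and 9.98, 10.03, 10.12 and 9.82 in wild type samples 1 to 4. The groups did not overlap, although wild type sample 3 came within a narrow margin of knockout sample 3. The difference was 0.20 (SE 0.070, limma adjusted p = 0.461). Its unadjusted limma p was under 0.05 in 15 of the 16 further fits described below. With knockout sample 1 and wild type sample 4 both omitted, the difference was 0.12 (limma unadjusted p = 0.0839). This pair lies farthest apart on the first principal component and was chosen after seeing the data.

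The genes of kinases that act on glycogen synthase, regulatory subunits included, were 9 in number. Of these 1, a regulatory subunit, had an unadjusted p under 0.05. Prkag3, the gamma-3 subunit of AMP-activated protein kinase, is found mainly in fast glycolytic fibres, where mutations of it raise glycogen in pigs. It read 11.75, 11.49, 11.71 and 11.70 in knockout samples 1 to 4 and 12.08, 12.06, 11.71 and 11.99 in wild type samples 1 to 4. Wild type samples 1, 2 and 4 lay above all knockout samples, and wild type sample 3 lay among them. The difference was -0.30 (SE 0.090, limma adjusted p = 0.371, exact permutation p = 0.0857). The catalytic subunit Prkaa2 differed by 0.093 (SE 0.059), and the synthase kinases Gsk3a and Gsk3b by 0.0023 and 0.016.

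**Figure D4:**
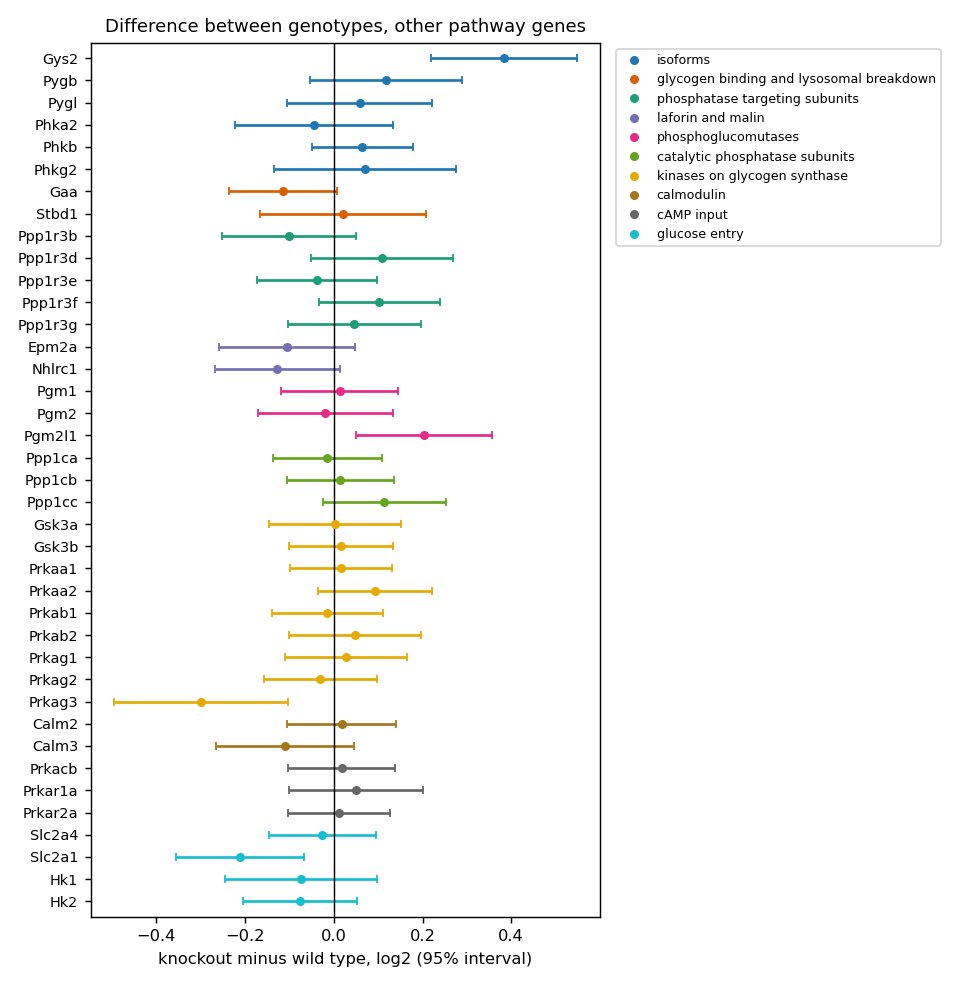
Difference between knockout and wild type (log2, horizontal axis) with its 95% interval from limma for the 39 further pathway genes, coloured by role. The intervals of Gys2, Pgm2l1, Prkag3 and Slc2a1 do not span 0 before adjustment, and the other 35 do.

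For glucose entry, Slc2a1, the transporter GLUT1 of many cell types, read 9.14, 9.26, 9.35 and 9.37 in knockout samples 1 to 4 and 9.54, 9.54, 9.45 and 9.43 in wild type samples 1 to 4. Every knockout sample lay below every wild type sample, with a difference of -0.21 (SE 0.066, limma adjusted p = 0.397, exact permutation p = 0.0286). Slc2a4, the insulin-responsive transporter GLUT4, differed by -0.026 (SE 0.056), and the hexokinases Hk1 and Hk2 by -0.074 and -0.076.

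In the remaining roles no gene had an unadjusted p under 0.05. The member of smallest p was Gaa, the lysosomal glucosidase, among glycogen-binding and lysosomal genes (-0.11, SE 0.056). It was Nhlrc1, the ubiquitin ligase malin, in its pair with laforin (-0.13, SE 0.065). Among phosphatase catalytic subunits it was Ppp1cc (0.11, SE 0.064), and among the other targeting subunits Ppp1r3f (0.10, SE 0.063). Calm3 for calmodulin differed by -0.11 (SE 0.071) and Prkar1a for cAMP signalling by 0.050 (SE 0.069).

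Marker genes place these values in the tissue. Fibre-defining markers (5 of 5 measured, with Acta1 and Ckm the brightest) had mean log2 signals of 14.35 to 14.41 in knockout and 14.40 to 14.43 in wild type samples. The 8 fast fibre markers ranged from 14.30 to 14.35 and from 14.32 to 14.36, and 0 had an unadjusted p under 0.05. Both lists lay near the brightest value on each array (14.80 to 14.84), and whether their signals are compressed there was not tested. The 8 slow fibre markers ranged from 10.83 to 11.50 in knockout and from 11.58 to 12.00 in wild type samples, without overlap, and all 8 had a negative difference with an unadjusted p under 0.05 in limma (0 adjusted), a direction known from earlier results of these data. Macrophage markers ranged from 8.62 to 9.00 and from 8.31 to 8.72 (6 of 8 higher at that p). Fibroblast markers ranged from 11.00 to 11.32 and from 10.86 to 11.17 (3 of 6 higher). Over all genes, 4.72% were higher and 3.18% lower at that p. Adipocyte markers ranged from 8.41 to 8.84 in knockout samples and from 7.51 to 9.68 in wild type samples. They were lowest in wild type sample 3 and highest in wild type sample 2. Ppp1r3c read 11.75 and 11.91 in these samples, both below every other sample. Endothelial markers (4 of 4) ranged from 10.30 to 10.68 in knockout samples and from 10.46 to 10.59 in wild type samples. Schwann cell markers (4 of 6) ranged from 8.37 to 8.66 and from 8.58 to 8.91. At an unadjusted limma p under 0.05, 1 of the 4 Schwann cell markers was lower, Mbp, and 0 of the endothelial and adipocyte markers differed. The part of any of these cell types or fibre types in the values of Ppp1r3c, Gys2, Prkag3, Pgm2l1 and Slc2a1 was not tested.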

How the data were processed

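RNA of integrity number above 8 from gastrocnemius was labelled from 150 ng and hybridised to 8 Affymetrix mouse gene arrays. The deposited values are log2 signals per probe set, made by the authors with Affymetrix Expression Console 4.0, per the submitters' processing notes; the log2 scale was read from the values, and no source used here names the background correction, summarisation or normalization. Of 35556 probe sets, 21789 had 1 symbol, 1621 several and 12146 none listed; the brightest probe set of a gene was kept (19938 genes). Array medians lay at 7.69 to 7.77, and arrays correlated at 0.988 to 0.995. Values were not normalized again.

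Groups were taken from the genotype labels. limma 3.58.1 (lmFit, eBayes; R 4.3.3) was fitted over all genes with genotype as the only term, with Benjamini-Hochberg adjustment and a threshold of 0.05. Exact permutation tests (2-sided, 70 arrangements) covered single genes. The fit was tested on simulated data with changes larger than those of the 9 genes. That test does not tell how well changes of their size are found. The number of arrays limits precision. The rule for named genes took the 9 members, and from the further pathway list those with an unadjusted p under 0.05 and the smallest p in each role; other members of that list are named for their role, chosen after their values were seen. The same rule takes the brightest and smallest-p genes of each marker list, which are given here mainly as list ranges. Members and lists were chosen with earlier results of these data known. Plots were drawn with matplotlib 3.10.9. Some genes of the wider pathway list are not reported here.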

Additional observations from a re-analysis of the deposited data

How the results depend on the processing

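Quantile normalization, centring on array medians, trended and robust eBayes, array weights, omission of the dimmest 25% of genes, averaging of probe sets, the replicate block, omission of each sample and joint omission of the samples farthest apart on the first principal component, knockout 1 and wild type 4 (chosen after seeing the data), gave 16 further fits. In all 16, 0 of the 9 glycogen genes and 0 of the further pathway genes passed over all genes, and the median change of the 9 lay between 0.012 and 0.029. The number of the 9 at an unadjusted p under 0.05 was 0 to 1 with single samples left out and 0 under the joint omission. For the further pathway genes it was 4 in the main comparison, 7 with trended and robust eBayes, 3 without the dimmest genes, 3 under the joint omission and 4 to 6 with single samples left out. The share of all genes tested was 7.90%, 8.45%, 9.60% and 7.38% in the first 4 of these, in that order. It was 6.02% to 10.6% with single samples left out. The number of further pathway genes was 6 with quantile normalization and 5 with array weights, where the share of all genes was 9.72% and 9.35%. It was 4 with median centring, averaging of probe sets and the replicate block, where the share was 7.96%, 7.87% and 10.3%. Ppp1r3c kept its sign in all 16 (0.14 to 0.27) and had an unadjusted p under 0.05 in 12. Pgm2l1 had such a p in 15, and Prkag3 and Slc2a1 in all 16. Their lowest limma adjusted p-values over these fits were 0.319, 0.192 and 0.212. Gys2 had its lowest adjusted p over the alternatives at 0.0668 and its highest at 0.413; it was not in the fit without dim genes. Same-numbered samples deviated together in pairs 1 and 4 (correlations 0.34 and 0.34) but not in pairs 2 and 3 (-0.11 and -0.15), so the numbers were not taken to pair samples; with the replicate block the difference of Ppp1r3c was 0.21 with a limma adjusted p of 0.274, and 0 of the 9 passed.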
